A study of Homo sapiens with 2 samples.

Results

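The 10 genes described here encode parts of the spectrin-based membrane skeleton: the ankyrins ANK1, ANK2 and ANK3, the adducins ADD1, ADD2 and ADD3, the beta spectrins SPTB and SPTBN1, and the tropomodulins TMOD1 and TMOD3. They are 10 of the 58884 genes in the deposited count table, and all 10 reached the minimum of 20 counts summed over both libraries that 18078 genes reached. The genes were chosen by their measured values in the comparison described here, so every value below is a description of that choice and none is a test. TMOD1 reached the minimum only through the control library. The 4 families are represented each by a form used in the red cell (ANK1, ADD2, SPTB and TMOD1, 4 genes) and by paralogs used in other cells, most of them widely (ANK2, ANK3, ADD1, ADD3, SPTBN1 and TMOD3, 6 genes).

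RNA was sequenced from SAS cells, an established squamous carcinoma line from the tongue, in 2 conditions with 1 library each. The shKDM4C cells carried a lentiviral short hairpin against KDM4C, a demethylase that removes methyl groups from lysine 9 of histone H3. The LKO cells carried the control vector pLKO.1. Both had been infected with lentivirus and selected with puromycin, both were plated overnight before extraction with TRIzol, and both libraries were made from poly(A) RNA. With 1 library per condition nothing measures the spread between cultures, and a difference between the libraries could not be tested as a difference between conditions. In RNA of a whole culture, fewer cells of one kind and less RNA per cell cannot be told apart.

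The membrane skeleton is a net of spectrin tetramers, made of alpha and beta chains, under the plasma membrane. Beta spectrin binds ankyrin, which ties the net to transmembrane proteins, and its other end meets short actin filaments. Adducin caps the fast-growing end of those filaments and recruits spectrin to them, and tropomodulin caps their slow-growing end. The net is best known from the red cell, where it gives the cell its shape and lets it deform, and inherited loss of ankyrin-1 or beta spectrin causes hereditary spherocytosis. In epithelial cells the widely expressed paralogs build a similar net along the lateral membrane.

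The libraries held 50627096 counts in shKDM4C cells and 57626616 counts in LKO cells. Levels are given in CPM, the standard RNA-seq unit in which a count is divided by the library size and rescaled, here with effective library sizes from the trimmed mean of M values (TMM). In this unit 1 count equals 0.0203 CPM in shKDM4C cells and 0.0169 CPM in LKO cells. KDM4C itself had 242 counts (4.91 CPM) in shKDM4C cells, against 1047 counts (17.7 CPM) in LKO cells, which left 27.8% of the LKO level. The labelled cell type was checked with 12 squamous epithelial markers. All 12 reached 20 counts, with summed levels of 2255 CPM in shKDM4C cells and 2627 CPM in LKO cells. PERP had 26176 counts in shKDM4C cells and 32931 in LKO cells, DSP had 23330 in shKDM4C cells and 27179 in LKO cells, and KRT5 had 15935 in shKDM4C cells and 24147 in LKO cells. These counts are not scaled, and the scaled log2 ratio (shKDM4C over LKO) of DSP was 0.04. By the 1.5-fold rule given below, TP63 (-0.69), PKP1 (-0.80), ITGB4 (-0.91) and CDH1 (-1.03) were lower in shKDM4C cells and KRT6A (1.04) was higher. The other squamous markers, with PERP, DSP and KRT5 among them, were called in neither direction. Of 20 erythroid markers only EPOR reached the minimum, with 46 counts in shKDM4C cells and 85 in LKO cells. The 20 summed to 1.26 CPM in shKDM4C cells and 1.69 CPM in LKO cells, and HBB, HBD, HBG2, HBM, KLF1 and EPB42 were at 0 in both libraries. The 7 fibroblast markers summed to 6.09 CPM in shKDM4C cells and 4.80 CPM in LKO cells. The 10 muscle markers summed to 2.56 CPM in shKDM4C cells and 4.51 CPM in LKO cells, with MYH1, MYH7 and MYOG at 0 in both. Only TNNT3 (46 counts in shKDM4C cells, 146 in LKO cells) and TNNI2 (57 in shKDM4C cells, 111 in LKO cells) reached 20 counts. The 8 neuronal markers summed to 23.1 CPM in shKDM4C cells and 18.9 CPM in LKO cells, with STMN2 at 0 in both. The most abundant were SYT1 (507 counts in shKDM4C cells, 355 in LKO cells), MAP2 (289 in shKDM4C cells, 381 in LKO cells) and NEFL (258 in shKDM4C cells, 316 in LKO cells). The red cell forms below were thus read in squamous cells in which each hemoglobin gene among the erythroid markers had at most 1 count per library.

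The study lists 2 hairpins against KDM4C and does not name the one used for sequencing, so both target sites are shown because any pairing outside KDM4C would start from them. They are written 5′ to 3′ as DNA of the target strand, with capitals at bases 10 to 20, which pair with guide positions 2 to 12.
shKDM4C#1: atacttggaTTACGAAGATTt
shKDM4C#2: gctatgagaAGCCCGAGAAAt
On GRCh38 the first lies at chr9:6814646-6814666 (+) in exon 4 of the 22 exons of the canonical KDM4C transcript, and the second at chr9:6986467-6986487 (+) in exon 11, both in coding sequence. The first site was found in 8 annotated KDM4C transcripts and the second in 7, and 0 transcripts of the 10 members held either. Each run of capitals contains 5 overlapping 7-base words, and these were searched for in the 3′ UTRs of the members' canonical transcripts. ANK1, ANK2, ADD1, ADD2, TMOD1 and TMOD3 had 0 words of either hairpin. ANK3 had 1 word of each, ADD3 had 1 word of the first, SPTB had 3 of the second and SPTBN1 had 2 of the second. Among 13219 3′ UTRs of genes with at least 20 counts, 17.5% held a word of the first hairpin and 10.5% a word of the second. A word is a match of letters only, and the part of the hairpin in any value below was not tested.

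The comparison asked which forms of the membrane skeleton differed after KDM4C knockdown. Of the red cell forms, ANK1, ADD2 and TMOD1 were lower in shKDM4C cells and SPTB was higher. Of the paralogs, ANK2 and ANK3 were lower, and ADD1, ADD3, SPTBN1 and TMOD3 were called in neither direction. The words lower and higher are used for ratios of at least 1.5-fold whose exact 95% counting interval excluded no change. That interval covers counting error alone. By this rule 5 of the 10 members were called lower and 1 higher, beside 15.7% of the 18078 genes called lower and 13.0% called higher. Since the same comparison chose the members, nothing is read from these counts. The log2 ratio (shKDM4C over LKO) had a median of -2.30 over the 4 red cell forms and -0.38 over the 6 paralogs, beside -0.0094 over the 18078 genes.

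**Figure D1:**
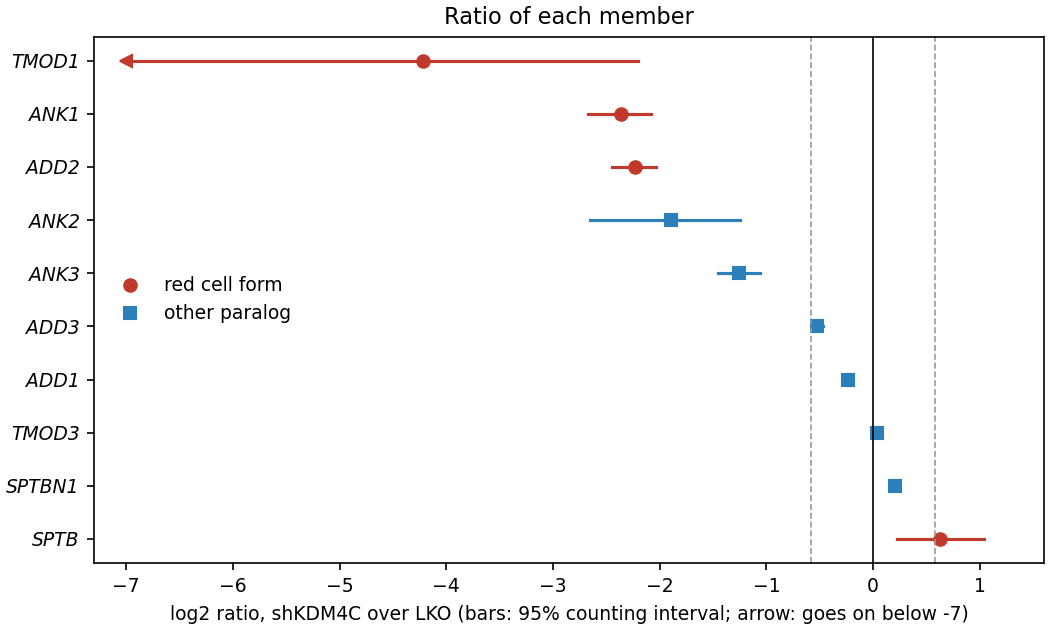
Log2 ratio of shKDM4C over LKO for each of the 10 members, with bars for the 95% counting interval, circles for the red cell forms and squares for the other paralogs. Dashed lines mark 1.5-fold in either direction. TMOD1, ANK1 and ADD2 have the lowest ratios (-4.22, -2.37 and -2.24) and SPTB the highest (0.63), and the interval of TMOD1 goes on to -10.1.

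The 6 called members all had a mean under 1000 counts per library. Among genes with a mean of 10 to 100 counts per library, where ANK2 and TMOD1 lay, 17.1% were called lower and 21.4% higher. Among genes with 100 to 1000 counts, the class of ANK1, ANK3, ADD2 and SPTB, 23.9% were called lower and 11.1% higher. With 1000 to 10000 counts, the class of ADD1, ADD3 and TMOD3, 9.69% were called lower and 6.67% higher, and with 10000 or more, the class of SPTBN1, 4.80% were called lower and 6.60% higher. Over all genes, calls were thus rarer above 1000 counts than below, and the part of expression level in the contrast between red cell forms and paralogs was not tested.

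**Figure D2:**
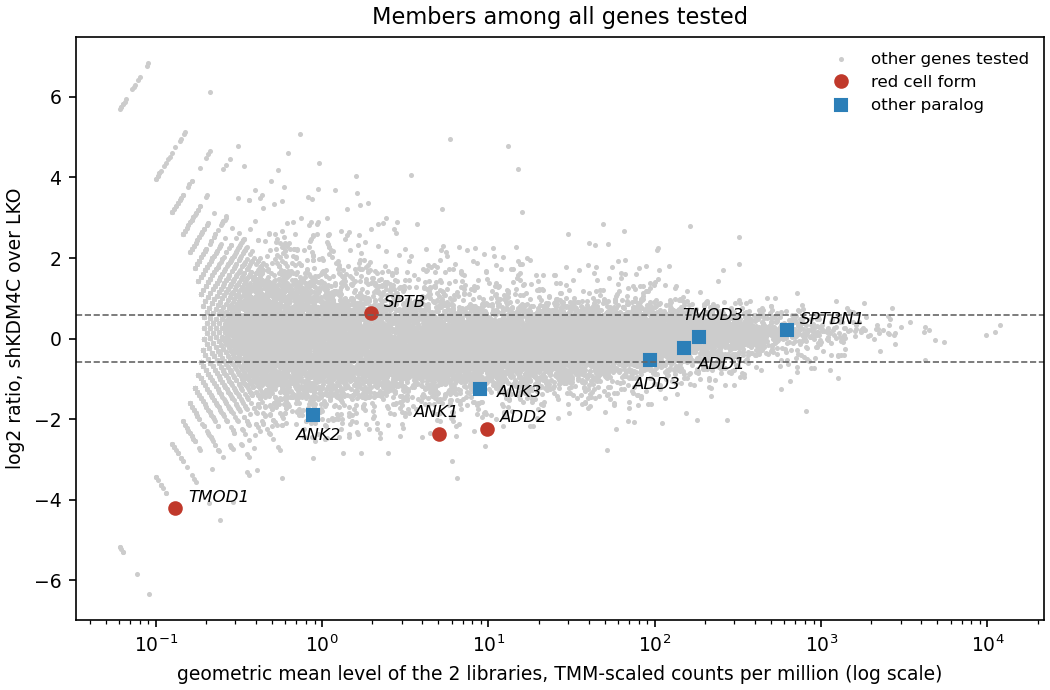
Log2 ratio of shKDM4C over LKO against the geometric mean level of both libraries (TMM-scaled CPM, log axis), with 1 grey point for each of the 18078 genes and the members marked and named. Dashed lines mark 1.5-fold. ANK1, ADD2 and TMOD1 lie along the lower edge of the cloud at their levels, and ADD1, TMOD3 and SPTBN1 lie inside it near 0.

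The ankyrins were the family in which every member was lower. Ankyrin-1, the product of ANK1 (ENSG00000029534, chr8:41653220-41896741, minus strand), links beta spectrin to the anion exchanger of the red cell. It had 109 counts (2.21 CPM) in shKDM4C cells, against 677 counts (11.4 CPM) in LKO cells, or 19.3% of the LKO level. The log2 ratio was -2.37, with an interval from -2.68 to -2.08, and it ranked 108 from the lowest of the 18078 genes. ANK2 (ENSG00000145362, chr4:112818032-113384221, plus strand) encodes ankyrin-B, known from heart and neurons, where it places ion transporters. It had 22 counts (0.447 CPM) in shKDM4C cells, against 100 counts (1.69 CPM) in LKO cells, with a log2 ratio of -1.90 and an interval from -2.66 to -1.24. Both values of ANK2 were thin for a gene with 129 annotated transcripts. ANK3 (ENSG00000151150, chr10:60026298-60733490, minus strand) encodes ankyrin-G, which holds sodium channels at the axon initial segment and binds E-cadherin at the lateral membrane of epithelia. It had 284 counts (5.77 CPM) in shKDM4C cells, against 814 counts (13.8 CPM) in LKO cells, with a log2 ratio of -1.25 and an interval from -1.46 to -1.06.

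The ankyrins together had 415 counts (8.43 CPM) in shKDM4C cells, against 1591 counts (26.9 CPM) in LKO cells, a log2 ratio of -1.67 with an interval from -1.83 to -1.52. ANK1 made up a smaller part of this sum in shKDM4C cells. ANK1 held 26.3% of the ankyrin counts in shKDM4C cells (exact Clopper-Pearson 95% interval 22.1 to 30.8%) and 42.6% in LKO cells (40.1 to 45.0%). ANK3 held 68.4% (63.7 to 72.9%) in shKDM4C cells and 51.2% (48.7 to 53.6%) in LKO cells, and ANK2 held 5.30% in shKDM4C cells and 6.29% in LKO cells. Such shares do not depend on how the libraries are scaled. The number of ANK1 counts per ANK3 count in shKDM4C cells was 0.462 times that in LKO cells (exact conditional interval of the counts 0.358 to 0.592). Against ANK2 the same ratio was 0.732 (0.435 to 1.27). Per kilobase of exon, ANK1 held 46.5% of the family in shKDM4C cells and 64.9% in LKO cells, and ANK3 held 51.6% in shKDM4C cells and 33.2% in LKO cells.

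**Figure D3:**
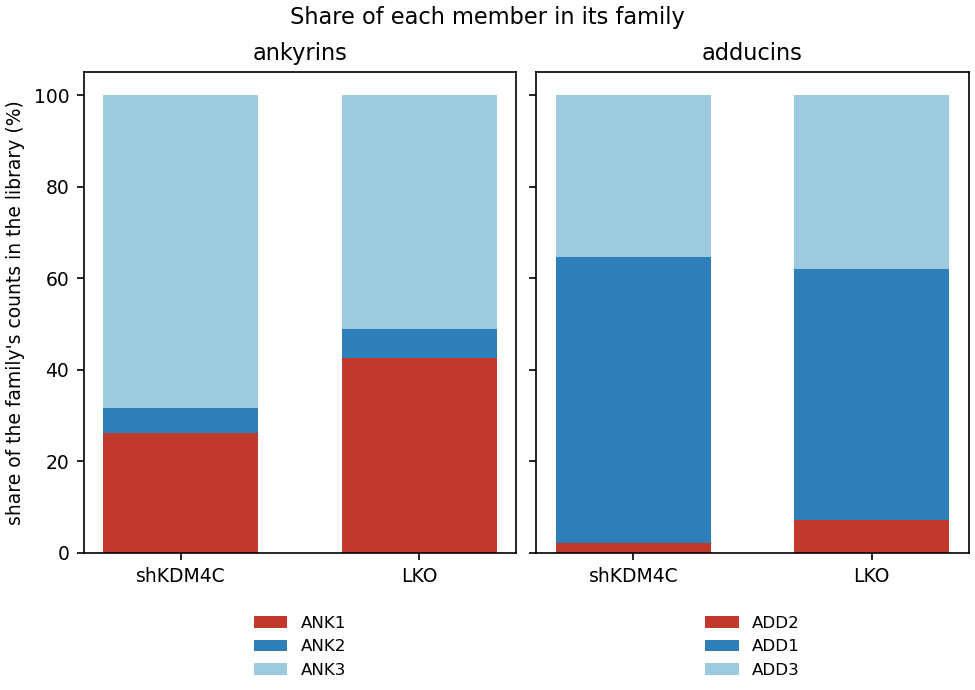
Share of each gene in the summed counts of its family (percent of counts, stacked bars), for the 3 ankyrins and the 3 adducins, with shKDM4C cells left of LKO cells. The red segment is the red cell form: ANK1 is 26.3% in shKDM4C cells and 42.6% in LKO cells, and ADD2 is 2.06% in shKDM4C cells and 7.23% in LKO cells.

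Among the adducins the red cell form stood apart from both paralogs. Adducin works as a tetramer of an alpha subunit, the product of ADD1, with either the beta subunit encoded by ADD2, which is used in red cells and neurons, or the gamma subunit encoded by ADD3, used in most other cells. ADD2 (ENSG00000075340, chr2:70607618-70768225, minus strand) had 223 counts (4.53 CPM) in shKDM4C cells, against 1263 counts (21.4 CPM) in LKO cells, or 21.2% of the LKO level. Its log2 ratio was -2.24 with an interval from -2.45 to -2.03, the narrowest among the red cell forms. ADD1 (ENSG00000087274, chr4:2843844-2930076, plus strand) had 6783 counts (138 CPM) in shKDM4C cells, against 9578 counts (162 CPM) in LKO cells, a log2 ratio of -0.23 (-0.28 to -0.19). ADD3 (ENSG00000148700, chr10:109996368-110135565, plus strand) had 3839 counts (77.9 CPM) in shKDM4C cells, against 6622 counts (112 CPM) in LKO cells, a log2 ratio of -0.52 (-0.58 to -0.46). Both intervals excluded no change, and both ratios fell short of 1.5-fold under TMM scaling. With libraries scaled by total counts the ratio of ADD3 was -0.60, past 1.5-fold.

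ADD2 held 2.06% of the adducin counts in shKDM4C cells (1.80 to 2.34%) and 7.23% in LKO cells (6.85 to 7.63%). ADD1 held 62.5% in shKDM4C cells and 54.8% in LKO cells, and ADD3 held 35.4% in shKDM4C cells and 37.9% in LKO cells. The number of ADD2 counts per ADD1 count in shKDM4C cells was 0.249 times that in LKO cells (0.215 to 0.289), and per ADD3 count it was 0.305 times (0.262 to 0.353). The adducins together had 10845 counts in shKDM4C cells, against 17463 in LKO cells, a log2 ratio of -0.42 (-0.46 to -0.39).

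The red cell form of beta spectrin went the other way from the other red cell forms. Beta spectrin binds ankyrin near its carboxyl end and actin at its amino end, so it joins both of the fixed points of the net. SPTB (ENSG00000070182, chr14:64746283-64879907, minus strand), which encodes the red cell and muscle form, had 120 counts (2.44 CPM) in shKDM4C cells, against 93 counts (1.57 CPM) in LKO cells. Its log2 ratio was 0.63 (0.23 to 1.04), or 1.55-fold higher, and with total-count scaling it was 0.55, short of 1.5-fold. On the opposite strand, the exons of PLEKHG3 overlap 3408 bases, or 23.0%, of the exon bases of SPTB. PLEKHG3 had 2326 counts in shKDM4C cells, against 1687 in LKO cells, a log2 ratio of 0.73 (0.64 to 0.82). The kit marks the strand, but the strand setting of the counting is not given in the sources used here, and the part of PLEKHG3 in the SPTB counts was not tested. SPTBN1 (ENSG00000115306, chr2:54456317-54671446, plus strand), the beta spectrin of most other cells, was the most abundant member. It had 33066 counts (671 CPM) in shKDM4C cells, against 34453 counts (583 CPM) in LKO cells, a log2 ratio of 0.20 (0.18 to 0.23). SPTB made up 0.362% of the counts of both genes in shKDM4C cells (0.300 to 0.432%) and 0.269% in LKO cells (0.217 to 0.330%). The number of SPTB counts per SPTBN1 count in shKDM4C cells was 1.34 times that in LKO cells (1.02 to 1.78).

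The tropomodulins held the lowest ratio, on the fewest counts. TMOD1 (ENSG00000136842, chr9:97501180-97601743, plus strand), the form of red cells and striated muscle, had 1 count (0.0203 CPM) in shKDM4C cells, against 33 counts (0.558 CPM) in LKO cells. Its log2 ratio was -4.22 with an interval from -10.1 to -2.20, and with a prior count of 5 in place of 0.5 it was -2.40. TSTD2 lies on the opposite strand and its exons overlap 1664 bases, or 45.3%, of the exon bases of TMOD1. TSTD2 had 1072 counts in shKDM4C cells and 1085 in LKO cells, with a log2 ratio of 0.25 (0.12 to 0.37), beside the single TMOD1 count in shKDM4C cells. TMOD3 (ENSG00000138594, chr15:51829628-51947295, plus strand), which caps actin filaments in most cells, had 9192 counts (187 CPM) in shKDM4C cells, against 10723 counts (181 CPM) in LKO cells. Its log2 ratio of 0.04 (0.0014 to 0.082) was -0.035 with total-count scaling, so its direction was set by the scaling. The number of TMOD1 counts per TMOD3 count in shKDM4C cells was 0.0354 times that in LKO cells (0.000869 to 0.211).

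**Figure D4:**
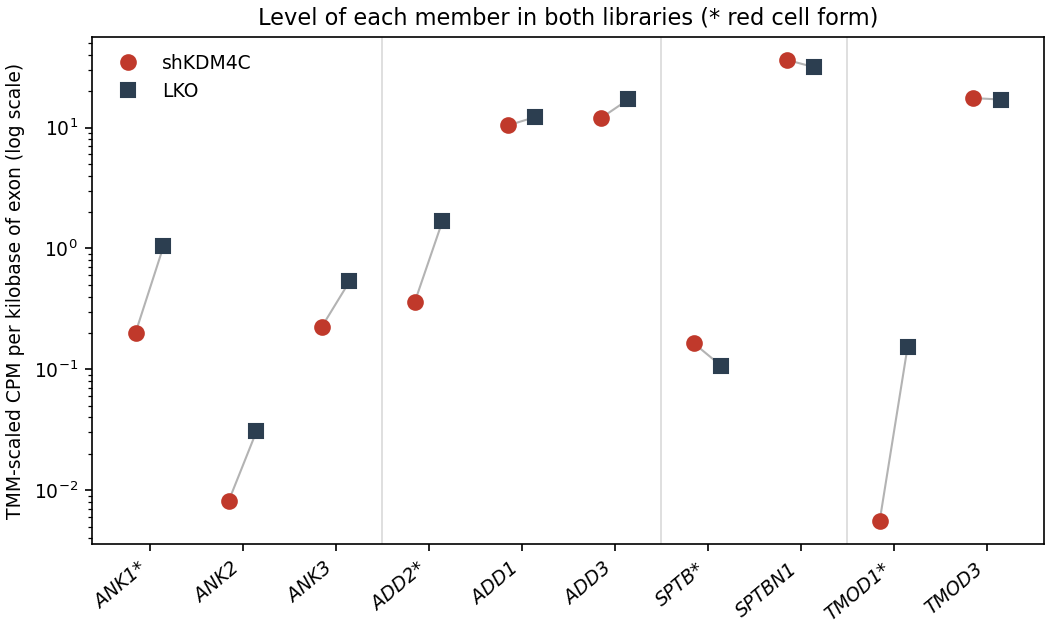
Level of each member in shKDM4C cells (circles) and LKO cells (squares), as TMM-scaled CPM per kilobase of merged exons on a log axis, with an asterisk at each red cell form. SPTBN1, TMOD3, ADD1 and ADD3 lie between 10.4 and 36.3 in both libraries, and the other 6 genes lie at or under 1.69.

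Levels of different genes were compared per kilobase of merged exons. In shKDM4C cells the order was SPTBN1 (36.3 CPM per kilobase), TMOD3 (17.6), ADD3 (11.9), ADD1 (10.4), ADD2 (0.357), ANK3 (0.223), ANK1 (0.201), SPTB (0.165), ANK2 (0.0081) and TMOD1 (0.0055). In LKO cells it was SPTBN1 (31.5), ADD3 (17.1), TMOD3 (17.1), ADD1 (12.2), ADD2 (1.69), ANK1 (1.04), ANK3 (0.533), TMOD1 (0.152), SPTB (0.106) and ANK2 (0.0307). SPTBN1, ADD1, ADD3 and TMOD3 were the leading forms in both libraries, and each red cell form except ANK1 in LKO cells was under its most abundant paralog. Without replicates the spread around each level is unknown. The order of ADD1, ADD3 and TMOD3 depended on the gene length used, since per kilobase of the longest transcript ADD1 led with 26.6 in shKDM4C cells and 31.3 in LKO cells, against 22.7 in shKDM4C cells and 22.0 in LKO cells for TMOD3.

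Reads shared between paralogs would blur these contrasts, so the sequences of the families were compared. Identity was counted over aligned bases only, so bases opposite a gap were left out. With ANK1, 5629 of the 11871 coding bases of ANK2 were aligned, and 5630 of the 13131 of ANK3. Coding sequences of the canonical transcripts were 66.5% identical between ANK1 and ANK2, 67.2% between ANK1 and ANK3 and 62.7% between ANK2 and ANK3. They were 63.7% identical between ADD2 and ADD1, 61.9% between ADD2 and ADD3, 62.9% between ADD1 and ADD3, 67.6% between SPTB and SPTBN1, and 63.2% between TMOD1 and TMOD3. In all 8 pairs the annotated transcripts of both genes shared 0 words of 50 bases, so no exact stretch of that length belonged to both.

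Promoter windows were examined because the study proposes that KDM4C acts with GATA1, the erythroid transcription factor. GATA1 had 1 count in shKDM4C cells and 0 counts in LKO cells. In SAS cells the study reported GATA1 protein bound to KDM4C, GATA1 at the FECH and E2F2 promoters by chromatin immunoprecipitation, and effects of GATA1 knockdown. RNA counts are a different measure from these. RefSeq windows on GRCh38.p14, of 250 bases before to 50 bases after the start, were matched for 9 of the 10 members. ANK1 was not matched. For each other gene only the window at the start of the canonical transcript was read. ANK2 had 10 windows listed, ANK3 had 4, ADD3 had 3, and ADD2, SPTB, SPTBN1 and TMOD1 had 2 each. Their remaining windows are not described here. At ANK2 and ANK3 the window that was read lies inside the annotated gene, downstream of its outermost start. The search covered the word AGATAA, the word TGATAA, the word AGATAG and the word TGATAG, on both strands. SPTB and ANK2 held 2 such words each, ANK3 and TMOD3 held 1 each, and ADD1, ADD2, ADD3, SPTBN1 and TMOD1 held 0. Of all 35116 windows of this length, 25.0% held at least 1. These windows can include more than 1 per gene and were not limited to genes with at least 20 counts. The windows of SPTB and ADD2 are shown because these red cell forms moved in opposite directions, with the GATA words in capitals.
SPTB promoter, chr14:64879858-64880157 (minus strand): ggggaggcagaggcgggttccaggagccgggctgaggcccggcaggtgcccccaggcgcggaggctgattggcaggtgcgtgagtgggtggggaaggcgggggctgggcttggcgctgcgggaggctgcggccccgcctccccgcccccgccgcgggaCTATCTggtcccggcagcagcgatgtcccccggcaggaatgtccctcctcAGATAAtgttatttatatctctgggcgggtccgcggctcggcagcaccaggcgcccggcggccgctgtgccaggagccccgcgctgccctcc
ADD2 promoter, chr2:70768151-70768450 (minus strand): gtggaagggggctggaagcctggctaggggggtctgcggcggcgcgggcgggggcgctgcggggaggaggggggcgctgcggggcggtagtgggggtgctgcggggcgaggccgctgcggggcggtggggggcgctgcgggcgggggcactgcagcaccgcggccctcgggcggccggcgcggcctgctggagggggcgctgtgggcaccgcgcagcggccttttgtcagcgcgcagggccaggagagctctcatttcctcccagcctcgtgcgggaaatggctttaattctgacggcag
The SPTB words start 92 and 42 bases before the start site, the first as the reverse complement of AGATAG and the second as AGATAA. A match of letters is not a binding site, and no match says nothing of the factor. The windows also differed in CpG content. TMOD1 held 44 CpG pairs, SPTBN1 37, ADD1 36, ADD2 34, ADD3 33, SPTB 28, TMOD3 18, ANK2 9 and ANK3 3, beside a median of 14 over all windows. ADD2 and TMOD1 (lower), SPTB (higher), and ADD1, ADD3, SPTBN1 and TMOD3 (called in neither direction) held more CpG pairs than that median. ANK2 and ANK3, which were lower, held fewer. Since the median was not limited to genes with at least 20 counts, nothing is read from the members above or below it. The part of CpG content in these calls was not tested.

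**Figure D5:**
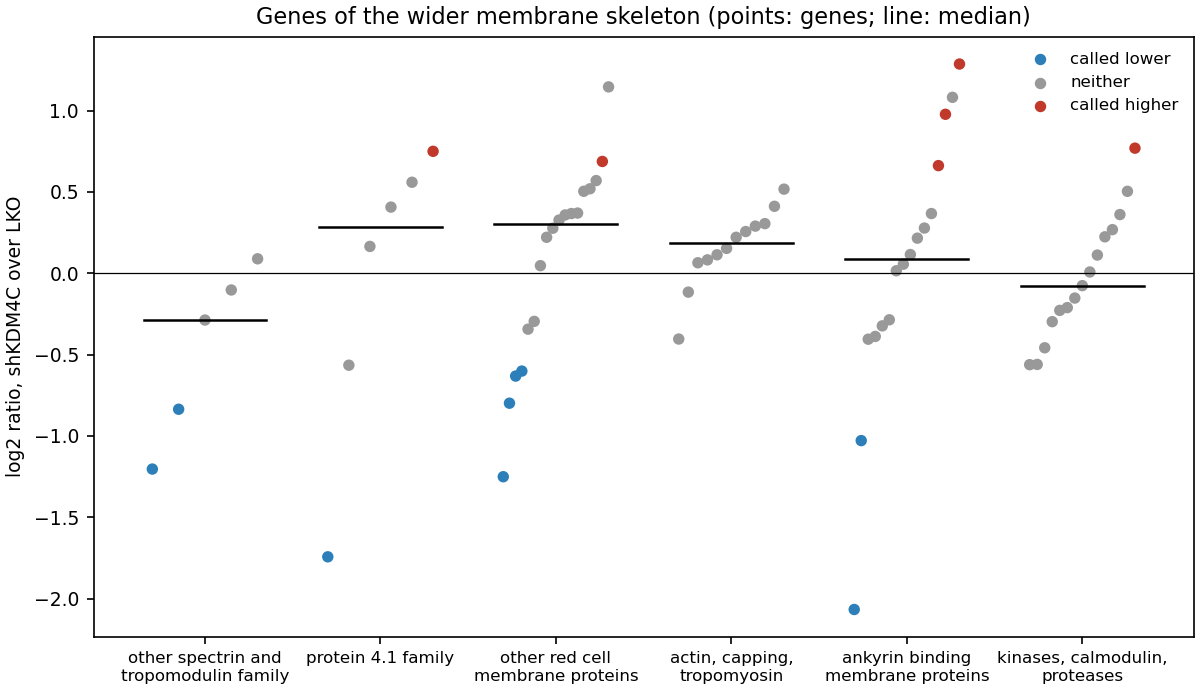
Log2 ratio of shKDM4C over LKO for the genes with at least 20 counts in 6 lists of the wider membrane skeleton, with 1 point per gene coloured by its call and a line at the median of each list. The lowest points are DAG1 (-2.07), EPB41L1 (-1.74) and XK (-1.25). The actin list, whose genes all have a mean above 1000 counts per library, has no called gene.

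The wider skeleton was read through 6 lists of genes that are not members. The calls in each list stand beside 15.7% of the 18078 genes called lower and 13.0% called higher. Of the other spectrins, tropomodulins and leiomodins, 5 of 10 reached 20 counts. Their median log2 ratio was -0.29, and 2 were called lower, 0 higher and 3 in neither direction. The lower genes included LMOD3, a nucleator of actin filaments in muscle, with 8 counts in shKDM4C cells and 23 in LKO cells. Its log2 ratio was -1.20, and its interval from -2.63 to -0.048 barely excluded no change. LMOD3 was named after its values were seen, and its mean lay under the 20 counts per library set for naming. SPTAN1, the alpha spectrin that pairs with SPTBN1, had 17881 counts in shKDM4C cells and 23056 in LKO cells and a log2 ratio of -0.10 (-0.13 to -0.07).

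The protein 4.1 family, listed here as proteins that strengthen the bond of spectrin with actin and their relatives, had 6 of 7 genes at 20 counts or more. The median was 0.29, and 1 gene was called lower, 1 higher and 4 in neither direction. EPB41L1, the neuronal form 4.1N, had 534 counts in shKDM4C cells, against 2147 in LKO cells, a log2 ratio of -1.74 (-1.88 to -1.61). EPB41L4A had 38 counts in shKDM4C cells, against 27 in LKO cells, and its interval from 0.0073 to 1.53 barely excluded no change. EPB41, the form first found in red cells, had 2251 counts in shKDM4C cells, against 3999 in LKO cells, a log2 ratio of -0.56 (-0.64 to -0.49), short of 1.5-fold.

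Of 29 other red cell membrane and skeleton proteins, 18 reached 20 counts. The median was 0.30, and 4 genes were called lower, 1 higher and 13 in neither direction. XK, which carries the Kx blood group antigen, had 104 counts in shKDM4C cells, against 298 in LKO cells, a log2 ratio of -1.25 (-1.59 to -0.93). KCNN4, the calcium-activated potassium channel of the red cell, had 401 counts in shKDM4C cells, against 838 in LKO cells, a log2 ratio of -0.80 (-0.97 to -0.63). The other two lower genes lay close to 1.5-fold. PIEZO1, a stretch-gated channel, had 1895 counts in shKDM4C cells, against 3526 in LKO cells, a log2 ratio of -0.63 (-0.71 to -0.55), and DMTN, which encodes the actin-bundling protein dematin, had 243 in shKDM4C cells, against 443 in LKO cells, a log2 ratio of -0.60 (-0.83 to -0.37). STOM, which encodes stomatin of the red cell membrane, was higher, with 9080 counts in shKDM4C cells, against 6772 in LKO cells and a log2 ratio of 0.69 (0.64 to 0.73). The anchor that ankyrin-1 holds in red cells, SLC4A1, had 1 count in shKDM4C cells and 0 in LKO cells, and EPB42, which stabilises that bond, had 0 in both.

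The membrane proteins that ankyrins are known to hold had 16 of 22 genes at 20 counts or more. The median was 0.085, and 2 genes were called lower, 3 higher and 11 in neither direction, beside 15.7% and 13.0% of all genes called lower and higher. DAG1, the dystroglycan gene, had 1797 counts in shKDM4C cells, against 9038 in LKO cells, a log2 ratio of -2.07 (-2.14 to -1.99). CDH1, which encodes E-cadherin, a partner of ankyrin-G in epithelia, had 7276 counts in shKDM4C cells, against 17821 in LKO cells, a log2 ratio of -1.03 (-1.07 to -0.99). The 3 higher genes move or release ions. ITPR1, a calcium release channel, had 366 counts in shKDM4C cells, against 180 in LKO cells, a log2 ratio of 1.29 (1.03 to 1.55). ATP1B1, the beta subunit of the sodium pump, had 9747 counts in shKDM4C cells, against 5946 in LKO cells, a log2 ratio of 0.98 (0.93 to 1.02). SLC8A1, a sodium-calcium exchanger, had 751 counts in shKDM4C cells, against 570 in LKO cells, a log2 ratio of 0.66 (0.50 to 0.82).

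None of the 12 genes for actin, capping proteins, tropomyosin and adaptor proteins of the filament was called. Their log2 ratios lay between -0.40 (ARPC2) and 0.52 (CAPZA1), with a median of 0.19. All 12 had a mean above 1000 counts per library. Among all genes with 1000 to 10000 counts, 9.69% were called lower and 6.67% higher. With 10000 or more, 4.80% were called lower and 6.60% higher. Nothing is read from the absence of calls in this list. Of 16 kinases, calmodulins and proteases that act on the skeleton, 15 reached 20 counts. The median was -0.076, and 0 genes were called lower, 1 higher and 14 in neither direction. CALM2, which encodes the calcium sensor calmodulin, had 92222 counts in shKDM4C cells, against 64993 in LKO cells, a log2 ratio of 0.77 (0.75 to 0.78). CALM3, which encodes the same protein, had a log2 ratio of -0.15.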

How the data were processed

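RNA of SAS cells with shKDM4C or LKO was sequenced, with 1 library per condition. The authors deposited whole-number read counts of 58884 genes. According to the submitters' processing notes, the tools were HISAT2 and featureCounts on GRCh38 (hg38), after CASAVA, FastQC, MultiQC and Trimmomatic, with DESeq2. Their versions, the annotation and the strand setting were not given in the sources used here. The deposited tables of the authors' own comparison hold scaled values, fold changes and p-values and were not used.

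Symbols came from GENCODE v44 (58472 IDs found). A minimum of 20 counts summed over the libraries left 18078 genes, which hold 99.9% of all counts in either library. Library sizes were scaled with TMM in edgeR 4.0.16 (R 4.3.3). A prior count of 0.5 was added before the log2 ratio (shKDM4C over LKO), whose interval is the exact conditional (Clopper-Pearson) 95% interval of both counts. Intervals cover counting error only, because each condition had 1 library. Reads copied by PCR are not separate molecules, so the intervals can be too narrow even for counting error. No p-value was computed.

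The members and lists were chosen with earlier results of these data known. Of each list the called genes were named, at most 4 per direction, ranked by the interval bound nearest to 0, where the mean count per library was 20 or more. Of marker lists the genes at 0 and the 3 most abundant were to be named. The 3 most abundant are given for squamous and neuronal markers. The called squamous markers are also given and were named after their values were seen. For erythroid and muscle markers only the genes with at least 20 counts are given. SPTAN1, EPB41, SLC4A1, ARPC2, CAPZA1, CALM3, PLEKHG3, TSTD2, GATA1 and the genes beside the members were named after their values were seen. A few genes of the lists are counted but not reported here by name. Alternatives were 3 other scalings (RLE from DESeq2 1.42.0, upper quartile and total counts), minimums of 1 and 200 counts, a prior count of 5, a 2-fold rule, a 99% interval and other gene lengths. Hairpin sites came from the study's supplementary table, transcripts from GENCODE v44 and promoters from RefSeq. Python 3.11.15, pandas 2.3.3, scipy 1.17.1 and Biopython 1.88 were used.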

Additional observations from a re-analysis of the deposited data

How the results depend on the processing

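No paired analysis was possible because each condition had 1 library, so no replicate could be left out either. The directions of the 10 members held under the scalings of DESeq2 (RLE) and of the upper quartile, a minimum of 1 count and a prior count of 5, which moved TMOD1 to -2.40. With total counts, TMOD3 turned to -0.035, ADD3 reached -0.60 and was called lower, SPTB reached 0.55 and lost its call, so that 6 members were called lower and 0 higher, beside 18.5% of all genes called lower and 11.3% called higher. With the 2-fold rule 0 members were called higher, beside 7.46% of all genes called lower and 7.77% called higher. With a minimum of 200 counts 3 members were called lower, because ANK2 and TMOD1 dropped out, beside 14.3% of all genes called lower and 9.03% called higher, and the median log2 ratio of the other paralogs was -0.21. With total counts the protein 4.1 family had 2 genes called lower and 0 called higher, the kinase, calmodulin and protease list had 2 called lower, and the ankyrin binding list had 2 called higher, without SLC8A1. With the upper quartile, the protein 4.1 family and the other red cell proteins had 2 genes called higher each, and the other red cell proteins had 3 called lower, without DMTN. The median of all genes was -0.086 with total counts. Depth limits TMOD1, ANK2 and SPTB most.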

Other observations

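The nearest protein coding genes that did not overlap a member, up to 2 on each side with at least 20 counts, gave 40 genes. Of these 4 were called lower and 7 higher, beside 15.7% and 13.0% of all genes, with a median log2 ratio of -0.13. Overlapping genes, such as PLEKHG3 at SPTB and TSTD2 at TMOD1, were left out. Some of the 40 lay far off, such as SORCS3, 4731 kb from ADD3. Beside ANK1 lay GPAT4 (0.15), GINS4 (-0.91), KAT6A (0.33) and AP3M2 (-0.21), and only GINS4 was called. Beside ADD2, whose own log2 ratio was -2.24, TGFA had 10423 counts in shKDM4C cells, against 5078 in LKO cells, a log2 ratio of 1.30 (1.25 to 1.35). FAM136A, the next gene on that side, had 5265 counts in shKDM4C cells, against 3578 in LKO cells, a log2 ratio of 0.82 (0.76 to 0.88). VAX2, the nearest gene on the other side, was called lower like ADD2, with 20 counts in shKDM4C cells, against 45 in LKO cells, a log2 ratio of -0.89 (-1.74 to -0.12). Beside ANK3, SLC16A9, a transporter gene 290.3 kb away, had 35 counts in shKDM4C cells, against 214 in LKO cells, a log2 ratio of -2.33 (-2.91 to -1.83), and RHOBTB1, on the other side, was called higher, with 75 counts in shKDM4C cells, against 55 in LKO cells, a log2 ratio of 0.71 (0.19 to 1.24). Beside ANK2, CAMK2D and ARSJ were higher, with log2 ratios of 0.64 and 0.67. The 4 neighbours of TMOD1 (TDRD7, CTSV, NCBP1 and XPA) had log2 ratios between -0.20 and -0.08 and none was called. No reason for these values was tested.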
